A study of Caenorhabditis elegans with 16 samples.

Results

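The course described here follows control worms through 3 libraries, labelled 24 hr, 36 hr and 48 hr, among the 16 libraries of the study. The control libraries number 9 in all. Members were the genes whose mean over these 3 libraries was at least 1 TPM (a unit that scales each library to the same total after dividing reads by transcript length), which held for 13041 of the 46904 genes in the deposited tables. The other 33863 genes lay below that level, and 24871 of them were listed at 0 in all 3 libraries. RNA came from whole wild-type N2 worms (Caenorhabditis elegans) that ate HT115, a bacterial strain of Escherichia coli suited to feeding worms double-stranded RNA, here with the empty vector L4440. The worms that the study sets against these were fed double-stranded RNA against atp-2, a subunit of the mitochondrial ATP synthase, to ask which neuronal genes take part in aversive learning and memory under stress. The starting point of the hours, the age of the worms and the phase of memory that each hour stands for are not given in the labels. Each hour had 1 library, so a difference between hours has no replicate check and no test was made. The only replicated controls were 3 libraries at 0 hr and 3 at 20 hr, from separately made tables, and the spread among them serves below as a yardstick from other times.

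A worm replaces its cuticle at each molt, when the epidermis secretes collagens that prolyl hydroxylases and proteases process, under a cycle of nuclear receptors that the heterochronic genes place in the order of larval stages. Late in larval life the hermaphrodite germline enlarges, enters meiosis, makes sperm first and then oocytes, and the adult intestine secretes yolk proteins that oocytes take up. Neurons are nearly all in place by then, so that in RNA of whole worms their transcripts share the pool with tissues that are still growing. In such bulk RNA, fewer cells of a type and less RNA per cell cannot be told apart.

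Markers of the main tissues were detected at all 3 hours. All 6 markers of neurons, all 4 of body wall muscle, all 5 of intestine and all 6 of epidermis exceeded 1 TPM in each library. Neuronal markers summed to 771, 451 and 325 TPM at 24, 36 and 48 hr, intestinal markers to 7539, 10302 and 11561 TPM, and germline markers to 29.3, 104 and 234 TPM. Sperm markers summed to 0.591, 1.87 and 69.4 TPM and oocyte markers to 1.79, 5.34 and 45.1 TPM. Markers of early embryos were near 0 throughout, with a sum of 0.802, 0.367 and 0.272 TPM over 6 genes, of which end-3, med-1 and pes-10 were listed at 0 in all 3 libraries. Between 12155 and 13153 genes exceeded 1 TPM in a library. The 100 most abundant genes held 34.4%, 35.9% and 30.5% of all TPM at 24, 36 and 48 hr.

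The first step was small and mostly downward on the TPM scale, and the second was larger and mostly upward. Ratios are given as log2 of (TPM + 1), later over earlier hour, which understates changes of low genes. At 36 hr over 24 hr, 431 of 13041 genes (3.30%) were at least 2-fold higher and 920 (7.05%) at least 2-fold lower. At 48 hr over 36 hr, 1406 (10.8%) were at least 2-fold higher and 742 (5.69%) at least 2-fold lower. Large ratios were nearly confined to the second step, in which 254 genes (1.95%) were at least 8-fold higher and 28 (0.215%) at least 8-fold lower, against 2 genes (0.0153%) and 1 gene (0.00767%) at 36 hr over 24 hr. Between 2 replicate control libraries at 0 hr or 20 hr, from 128 to 894 of the same genes (0.982% to 6.86%) lay at least 2-fold apart, over 6 pairs, and at most 32 lay at least 8-fold apart.

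The balance of higher and lower genes depended on the scale. The median ratio over all genes was -0.16 at 36 hr over 24 hr and 0.10 at 48 hr over 36 hr. With all 3 libraries shifted to a common median level, the first step had 750 genes higher and 390 lower, the opposite balance, and its median became 0.11. In the second step that shift gave 1191 genes higher and 1031 lower. Quantile normalization gave 587 higher and 461 lower in the first step and 1136 higher and 1221 lower in the second. Without the 100 most abundant genes the counts were 580 higher and 954 lower, then 1300 higher and 1066 lower. Taken against genes of like transcript length they were 549 higher and 599 lower, then 1249 higher and 888 lower. The values below are TPM as deposited, and list medians are to be read against those medians of all genes. Levels over genes correlated at 0.965 between 24 and 36 hr, at 0.891 between 36 and 48 hr and at 0.822 between 24 and 48 hr, as a description across 13041 genes.

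Over both steps, 9844 genes stayed within 2-fold each time. Genes that changed in 1 step only were 254 higher and 795 lower at 36 hr, then 1252 higher and 594 lower at 48 hr. Another 134 genes were at least 2-fold higher in each step and 105 at least 2-fold lower in each. A level at least 2-fold above both neighbours at 36 hr was found for 43 genes, and one at least 2-fold below both for 20. Of the 10 most abundant genes 6 were collagens at 24 hr, 5 at 36 hr and none at 48 hr. The translation elongation factor gene eef-1A.1 and asp-1, an intestinal aspartic protease, were among the 10 at all 3 hours, and 3 actin genes (act-1, act-3 and act-4) joined at 48 hr. At the entry limit, Y53F4B.19 was included with a mean of 1.0006 TPM and ddn-1 was left out with 0.9985 TPM.

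**Figure D1:**
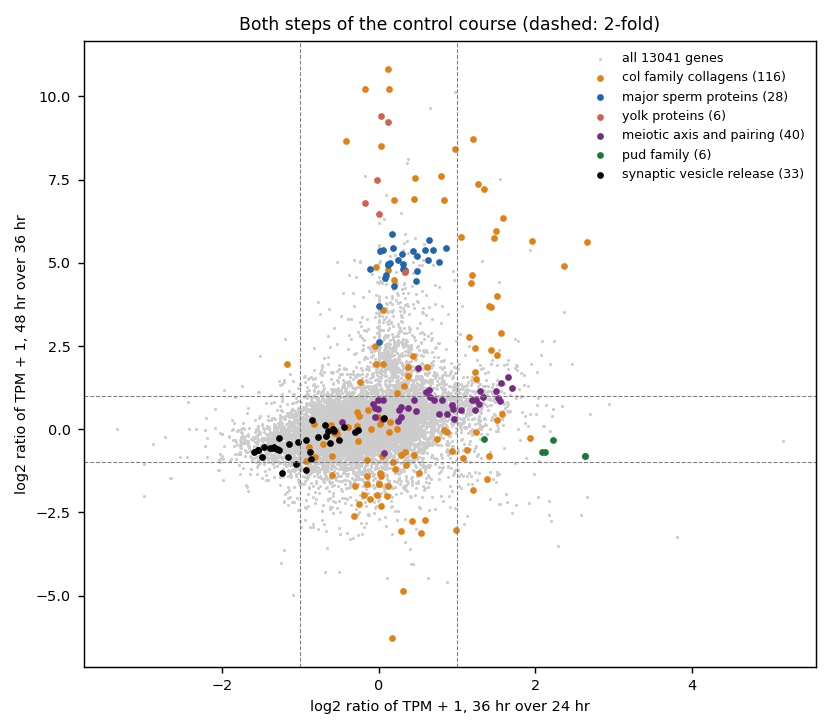
Each point is 1 of 13041 genes, placed by its log2 ratio of TPM + 1 at 36 hr over 24 hr (horizontal axis) and at 48 hr over 36 hr (vertical axis), with 6 gene lists in colour and dashed lines at 2-fold. Yolk and major sperm protein genes lie on a vertical band near 0 in the first step, col family collagens spread in both directions, and the pud family lies to the right.

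Cuticle collagens, the structural proteins of the exoskeleton, differed between hours in sets. Of 178 collagen genes in the table, 136 were measured, and 54 of these were at least 2-fold higher and 28 at least 2-fold lower at 48 hr over 36 hr, beside 10.8% and 5.69% of all genes. At 36 hr over 24 hr, 32 were at least 2-fold higher and 1 lower. The 136 genes summed to 99302, 103121 and 79608 TPM at 24, 36 and 48 hr, which is 9.93%, 10.3% and 7.96% of each library. The genes that held much of that sum differed in part between hours. Of 24 collagens above 1000 TPM at 24 hr, 13 were also above 1000 TPM at 48 hr. Grouping genes by their own highest hour fixes where each sum peaks, so these sums give sizes only. The 31 genes that were highest at 24 hr summed to 49065, 41796 and 12546 TPM. The 69 genes that were highest at 48 hr summed to 11324, 12614 and 46475 TPM.

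**Figure D2:**
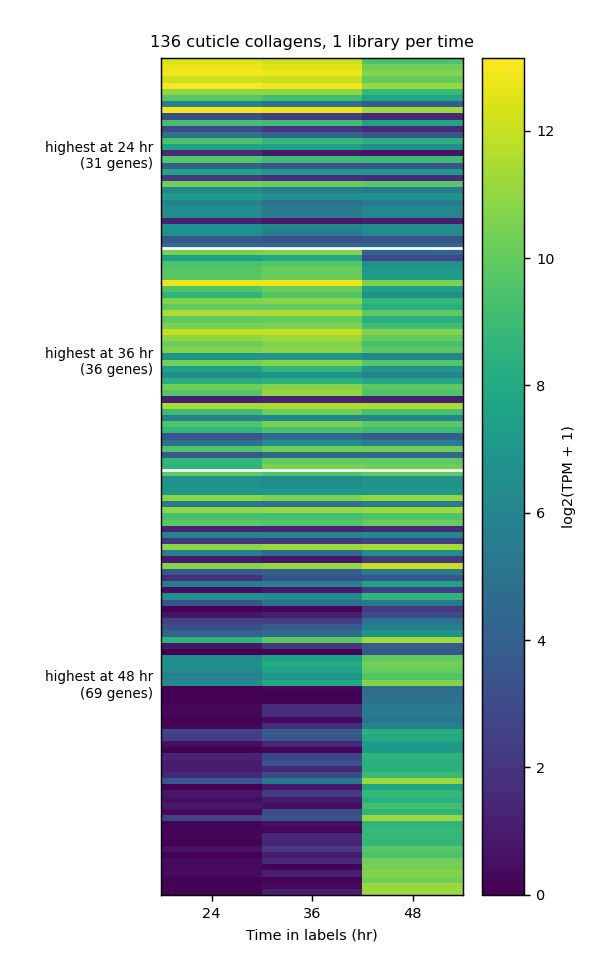
Each row is 1 of 136 cuticle collagens and each column 1 control library, coloured by log2(TPM + 1) and grouped by the hour at which the gene was highest. Columns at 24 and 36 hr look alike, and most of the 69 genes highest at 48 hr are dark at both earlier hours.

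The sharpest gains were collagens almost absent at both earlier hours. All 5 members of the list of blister and late collagens were at least 2-fold higher at 48 hr over 36 hr, with a median of 8.13. The blister gene bli-1 (chromosome II, 10708765 to 10712156), a collagen of the struts that join the layers of the adult cuticle, had 0.0824, 0.411 and 393 TPM at 24, 36 and 48 hr. Its partner bli-2 had 0.554, 3.56 and 839.9 TPM, and bli-6 (chromosome IV, 6377065 to 6378195) had 0.04, 1.05 and 2279 TPM. The collagen rol-1 had 0.285, 1.03 and 1624 TPM, and col-19, whose product belongs to the adult cuticle, was listed at 0 at 24 hr and had 0.784 and 208.5 TPM at 36 and 48 hr. All 5 were under 4 TPM at both earlier hours and above 200 TPM at 48 hr.

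In the col family the largest ratio of the whole course was that of col-138 (chromosome IV, 17182798 to 17183740), with 0.112, 0.213 and 2193 TPM at 24, 36 and 48 hr and a log2 ratio of 10.82 in the second step. Next came col-63 with 0.253, 0.112 and 1343 TPM, col-175 with 0, 0.0987 and 1313 TPM and col-49 with 0.274, 1.93 and 1239 TPM. Together 18 collagens were at least 100-fold higher at 48 hr on the scale of TPM + 1. None of the 18 exceeded 5.59 TPM at 24 hr or 10.4 TPM at 36 hr, and they reached between 135 and 2279 TPM at 48 hr. In the 0 hr controls these 18 formed a low and a high set. The low set of 12, with bli-1, bli-2, bli-6, rol-1, col-63, col-138 and col-175 among them, averaged under 60 TPM in the 3 libraries of 0 hr. The other 6 (col-19, col-81, col-122, col-139, col-178 and col-181) averaged between 2552 and 5226 TPM there. The 20 hr controls did not keep that division: bli-6 of the low set averaged 0.598 ± 0.294 TPM there, and of the high set col-19 averaged 324 ± 62.4 TPM but col-81 2.54 ± 0.938 TPM and col-139 5.42 ± 2.07 TPM (SD, n = 3 each). Both sets were high at 48 hr, where the low one held the highest level, that of bli-6.

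Collagens that were far lower at 48 hr had been abundant at both earlier hours. The collagen col-41 (chromosome X, 15175035 to 15176481) had 1419, 1593 and 19.5 TPM at 24, 36 and 48 hr, the largest fold lower of all genes in the second step (-6.28), and col-54 had 169.7, 210.5 and 6.25 TPM. The most abundant collagen of the early hours, col-3, had 9088, 7395 and 2241 TPM, and col-125 had 7933, 7173 and 2303 TPM. Each of these 4 was within 2-fold at 36 hr over 24 hr. In the 0 hr controls col-41 averaged 0.0959 ± 0.0531 TPM and col-54 0.0397 ± 0.0412 TPM (SD, n = 3), so both were near absent there. The collagen col-140 is among the 10 highest ratios of the first step, with 0.259, 6.97 and 393 TPM, and among genes at least 2-fold higher in both steps.

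Collagens with long-known body shape mutants behaved differently. None of the 6 furrow collagens, which shape the annular rings of the cuticle, passed 2-fold in either step. They were lower together at 36 hr, with a median of -0.86, and higher together at 48 hr, with 0.54; dpy-7 had 95, 49.6 and 82.5 TPM and dpy-10 had 60.2, 29.7 and 43.1 TPM. The same median differed by up to 1.18 between replicate controls, where these genes were low. Among 10 measured body shape collagens only lon-3 passed 2-fold, with 98.5, 80.2 and 393 TPM. The abundant dpy-13 had 1973, 2161 and 2308 TPM and sqt-3 had 1804, 1478 and 2086 TPM. The median of that list in the first step was -0.25, and it was 0.02 after the shift to a common median. Transcripts of near-identical collagens may share reads, so single members of the family are uncertain.

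Genes for proteins that modify collagen or build other layers of the cuticle stayed mostly within 2-fold, with exceptions in both directions. Of 15 collagen processing enzymes, 13 stayed within 2-fold in the first step and 12 in the second, where 10.4% and 16.5% of all genes passed it. Among the 15, dpy-11, a thioredoxin-like protein of the epidermis, had 217, 184 and 448 TPM. The prolyl 4-hydroxylase subunit gene phy-2 was highest at 36 hr, with 106, 234 and 87.9 TPM, and the peroxidase gene mlt-7 had 168, 82.5 and 26.5 TPM. Of 21 cuticlins, insoluble cuticle proteins outside the collagens, 6 were at least 2-fold lower in the first step and 5 in the second, and 2 were higher in the second. The cuticlin cut-2 had 3412, 1669 and 569.6 TPM and cutl-20 had 73.9, 38.1 and 6.71 TPM. Astacin metalloproteases had 9 of 24 at least 2-fold lower in the second step and 1 higher, with a median of -0.68; nas-5 had 35.6, 19.5 and 1.82 TPM. Genes of the apical matrix and molting had 11 of 35 at least 2-fold lower in the first step (median -0.71, or -0.38 against genes of like transcript length), where fbn-1, a fibrillin-like protein, had 23.1, 7.28 and 6.42 TPM. In the second step 3 were higher and 1 lower (median 0.49), with qua-1 at 117, 74 and 161 TPM.

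Secreted hedgehog-related proteins, which in worms are tied to the molting epidermis, moved in opposite directions in the second step. Of 37 measured, 9 were at least 2-fold higher and 7 lower at 48 hr, beside 10.8% and 5.69% of all genes. The gene grd-13 (chromosome IV, 3438312 to 3439503) had 447, 209.9 and 5.63 TPM, and grl-21 had 115, 124 and 4.61 TPM. In the other direction wrt-6 had 27.3, 35.7 and 481 TPM, and grl-27 was listed at 0 at 24 hr and had 0.35 and 25.6 TPM at 36 and 48 hr. Of 24 patched-related membrane proteins, 4 were lower in the first step (7.05% of all genes were) and 3 in the second. Only 1 was higher in the second, a smaller share than that of all genes. The gene ptr-13 had 25.8, 23.7 and 3.1 TPM and ptr-24 had 18.5, 24.4 and 65.2 TPM. Among 55 glutamine-rich abu and pqn genes, 14 were at least 2-fold higher in the second step and 4 lower, the latter near the share of all genes. The near-identical abu-7 and pqn-2 had 1.48, 2.01 and 37.3 TPM and 0.715, 2.01 and 38.4 TPM.

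Regulators of molting and of developmental timing had medians below that of all genes at 36 hr over 24 hr. Of 17 measured molting regulators, 8 were at least 2-fold lower and none higher in the first step, beside 7.05% of all genes lower. Their median was -0.89, and between replicate controls the same median differed by at most 0.08. The nuclear receptor gene daf-12 had 115, 28.2 and 25.3 TPM, nhr-25 had 60.7, 24.7 and 6.99 TPM, and nhr-91 had 33.3, 11.3 and 6.21 TPM. In the second step 3 were lower and none was higher past 2-fold; lin-42, the worm relative of the clock gene period, had 265, 222 and 416 TPM, and the membrane-bound transcription factor gene myrf-1 had 109.7, 45.3 and 74.6 TPM. Both were lowest at 36 hr.

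Among 16 heterochronic genes, 3 were at least 2-fold lower in the first step and 2 in the second, beside 7.05% and 5.69% of all genes. Their median was -0.55 in the first step. The gene lin-41 (chromosome I, 9334812 to 9342496), an RNA regulator repressed by the microRNA let-7 at the larval-to-adult switch, had 149.7, 17.9 and 8.23 TPM, the second largest fold lower of the first step. In the 20 hr controls lin-41 averaged 114 ± 52.1 TPM (SD, n = 3). The gene lin-46 had 36, 17.7 and 1.42 TPM, and mab-10, the cofactor of the adult-fate factor LIN-29, had 11.3, 14.6 and 54.3 TPM. So lin-41 was low from 36 hr on, and lin-46 and mab-10 moved in opposite directions at 48 hr. Of 22 genes of vulva and uterus patterning, 5 were at least 2-fold lower in the first step. None passed 2-fold in the second, where 16.5% of all genes did in either direction. The gene egl-43, a transcription factor of the anchor cell, had 22.6, 6.64 and 5.25 TPM, and hlh-2 had 15.5, 5.18 and 2.39 TPM.

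Germline stem cell, meiotic and germ granule genes were, by list median, higher at each hour than at the one before. Of 15 genes of germline stem cells and the GLP-1 pathway, 6 were at least 2-fold higher at 36 hr over 24 hr, where 3.30% of all genes were. At 48 hr over 36 hr 2 were, beside 10.8% of all genes, and none was 2-fold lower in either step. The translational repressor gene gld-1 (chromosome I, 7695661 to 7698227) had 2.74, 11.5 and 80.5 TPM, and the RNA-binding protein gene daz-1 had 3.89, 16.3 and 32.5 TPM. The receptor gene glp-1 itself had 3.75, 5.92 and 8.67 TPM and passed 2-fold in neither step. Its targets differed, with sygl-1 at 3.96, 11.3 and 11.4 TPM and lst-1 at 11.2, 15.9 and 11.3 TPM. The PUF repressor genes fbf-1 and fbf-2 had 1.01, 4.14 and 4.71 TPM and 1.34, 4.42 and 5.69 TPM.

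Genes of the meiotic chromosome axis, pairing and synapsis behaved likewise, with 13 of 40 at least 2-fold higher in the first step, 8 in the second and none lower. The axis genes him-3 and htp-1 had 0.939, 5.07 and 17 TPM and 0.722, 4.59 and 12.2 TPM, and syp-4, of the synaptonemal complex, had 0.895, 4.62 and 13.7 TPM. Germ granule genes had 6 of 16 higher in the first step and 4 in the second; glh-1, a Vasa-type helicase, had 15.3, 57.3 and 82.3 TPM, pgl-1 had 5.17, 18.3 and 33.1 TPM, and cgh-1 had 59.7, 54.1 and 205 TPM. Medians of these 3 lists in the first step were 0.77, 0.68 and 0.61, and they stayed above 0 under all 4 other scalings. Between replicate controls the same medians differed by at most 0.29, 0.39 and 0.31. The germline translation factor gene iff-1 (chromosome III, 9745864 to 9747193), an eIF5A, had the third largest ratio of the first step, with 24.2, 193 and 325 TPM.

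**Figure D3:**
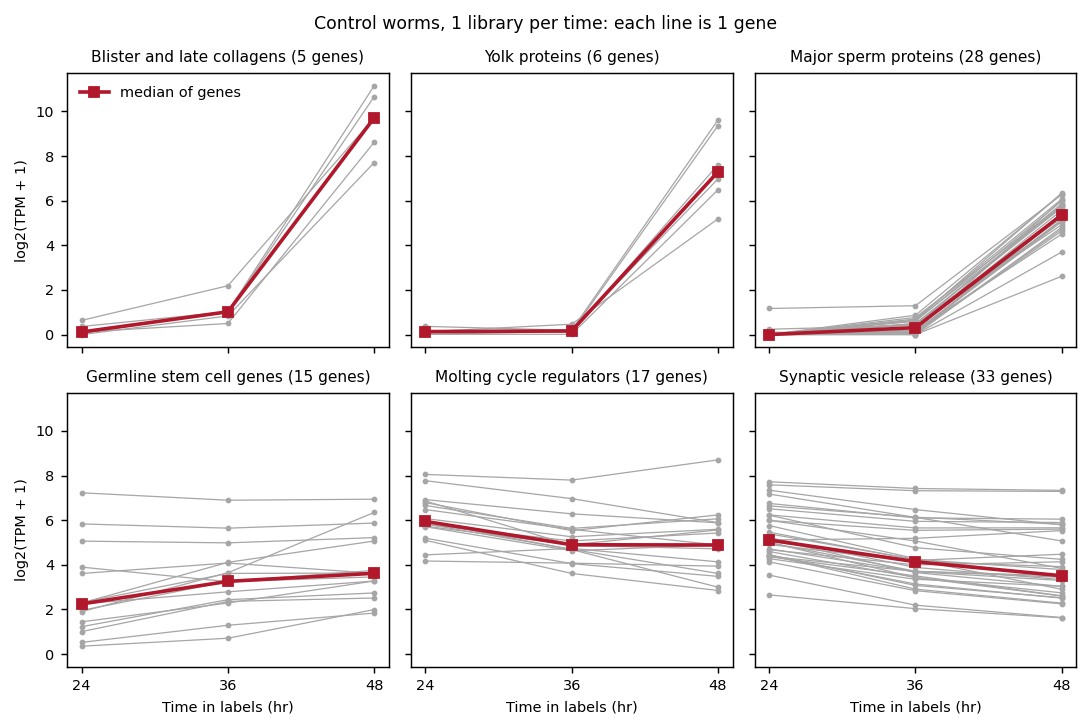
Each grey line is 1 gene, drawn as log2(TPM + 1) in the control libraries of 24, 36 and 48 hr, and the red line is the median of the genes of the list; there is 1 library per hour and no error bar. Late collagens, yolk and major sperm protein genes stay low until 36 hr, and germline stem cell genes are higher at each hour by their median. The medians of molting regulators and synaptic genes are lower at 36 hr than at 24 hr.

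Major sperm protein genes were near 0 until 36 hr, and most other sperm genes were also higher at 48 hr than at 36 hr. All 28 measured genes listed for the major sperm protein, the cytoskeletal protein of crawling sperm, were at least 2-fold higher at 48 hr over 36 hr, beside 10.8% of all genes. None passed 2-fold in the first step. Their sum over all 31 members was 1.54, 8.96 and 1223 TPM at 24, 36 and 48 hr. The gene msp-51 was listed at 0 at 24 hr and had 0.124 and 64.3 TPM at 36 and 48 hr. Members are near-identical in sequence, so their reads may be shared and the sum is the safer value. Outside that family, 24 of 31 sperm genes were at least 2-fold higher in the second step and none lower. In the first step 4 were higher and 1 lower, beside 3.30% and 7.05% of all genes. Their list summed to 99.2, 138 and 673 TPM, so some members were present at 24 and 36 hr. Its median in the second step, 3.25, lay between 0.33 and 4.81 under the alternative settings. The sperm-specific family members sss-1 and ssq-2 were listed at 0 at 24 hr and under 0.5 TPM at 36 hr, and had 63.5 and 44.1 TPM at 48 hr. The nematode-specific peptide gene nspd-1 was listed at 0 at 24 hr and had 0.371 and 49.1 TPM at 36 and 48 hr.

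The sex determination list had medians of -0.11 and 0.25, of which the first turned sign under 3 of 4 other scalings. In the first step 4 of 24 genes were at least 2-fold higher and 1 lower, beside 3.30% and 7.05% of all genes. Those higher include gld-1 and fbf-1, given above. In the second step 1 passed 2-fold in each direction, beside 10.8% and 5.69% of all genes. The gene fog-3, which directs germ cells to become sperm, was highest at 36 hr. It stayed at low levels of 0.75, 2.9 and 0.561 TPM, and its relation to the sperm genes was not tested. Its level in 0 hr controls averaged 0.544 ± 0.0928 TPM (SD, n = 3). The gene tra-1, a Gli-type factor that promotes female fate, had 69.4, 28.5 and 35.5 TPM.

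Oocyte genes were also higher at 48 hr over 36 hr. Of 30 oocyte and maternal RNA regulators, 16 were at least 2-fold higher and 1 lower in the second step, beside 10.8% and 5.69% of all genes. In the first step 4 were higher and 2 lower, beside 3.30% and 7.05% of all genes. The shares that were lower were thus no larger than those of all genes. The Y-box protein gene cey-2 had 5.85, 28.1 and 180.0 TPM, and the PUF genes puf-3 and puf-5 had 0.286, 0.531 and 10.3 TPM and 0.158, 0.312 and 7.57 TPM. The member that was lower in the second step is lin-41, which also acts in oocytes. Eggshell genes had 13 of 19 at least 2-fold higher in the second step. The barrier genes perm-2 and perm-4 had 45.4 and 34.6 TPM at 48 hr, where perm-2 was listed at 0 at both earlier hours and perm-4 was under 0.08 TPM. The chondroitin proteoglycan genes cpg-1 and cpg-2 had 1.31, 2.43 and 42.2 TPM and 1.03, 3.22 and 53.6 TPM. Eggshell genes summed to 366, 607 and 1095 TPM in the course, against 7174 ± 1084 TPM in the 0 hr controls (SD, n = 3).

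Yolk protein genes were near 0 at 24 and 36 hr and present at 48 hr, all 6 of them. The gene vit-2 (chromosome X, 5101032 to 5106173) had 0.0107, 0.0974 and 659 TPM, vit-6 (chromosome IV, 8261134 to 8266462) had 0.127, 0.148 and 785 TPM, and vit-5 had 0.00829, 0.00836 and 88.7 TPM. The pair vit-3 and vit-4, too alike to be told apart with confidence, had 195 and 125 TPM at 48 hr. The 6 genes summed to 0.629, 0.86 and 1888 TPM at 24, 36 and 48 hr, and to 8536 ± 1600 TPM at 0 hr and 17446 ± 8968 TPM at 20 hr (SD, n = 3 each). In the list of yolk uptake and regulation, 4 of 15 were at least 2-fold higher in the second step, beside 10.8% of all genes. These were rme-2, the yolk receptor of oocytes, with 0.455, 0.985 and 12.7 TPM, and 3 transcription factor genes. Of those, ceh-60, a PBC homeobox gene that activates yolk genes in the intestine, had 2.92, 10.1 and 48.6 TPM. It was past 2-fold higher in the first step as well, and its relation to the yolk genes was not tested. Its partner unc-62 had 57.1, 30.3 and 64.2 TPM, and the intestinal GATA factor gene elt-2 had 30.2, 21.9 and 58.6 TPM. The uterine genes ule-2 and ule-4 were listed at 0 until 36 hr and had 4.8 and 42.6 TPM at 48 hr, and ule-1 was listed at 0 in all 3 libraries.

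Beside the replicated controls, the reproductive classes of the 48 hr library stood at quite different levels. Major sperm protein genes summed to 1223 TPM at 48 hr, 1891 ± 795 TPM at 0 hr and 2.34 ± 0.716 TPM at 20 hr (SD, n = 3 each). Oocyte regulators summed to 1476 TPM at 48 hr, 10048 ± 1493 TPM at 0 hr and 17605 ± 419.6 TPM at 20 hr. Of the 254 genes at least 8-fold higher at 48 hr over 36 hr, 234 (92.1%) had a mean of at least 1 TPM in 0 hr controls and 51 (20.1%) in 20 hr controls, where 88.0% and 76.0% of all 13041 genes had, so the first share is near that of all genes. Correlations of log2 levels over genes with the 3 libraries of 0 hr lay between 0.562 and 0.595 for 24 hr, 0.625 and 0.667 for 36 hr and 0.694 and 0.752 for 48 hr. Since 0 hr and 20 hr come from tables made separately, these are levels side by side and not a change.

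The shares of cell division genes past 2-fold were no larger than those of all genes in either step. Of 46 mitotic cyclins and kinases, 1 was at least 2-fold higher and 2 lower in the first step (3.30% and 7.05% of all genes). In the second, 4 were higher and 1 lower (10.8% and 5.69% of all genes). The B-type cyclin gene cyb-1 had 11.2, 16.7 and 66 TPM and plk-3, a polo-like kinase gene, had 0.682, 3.81 and 17.5 TPM. None of 38 DNA replication genes passed 2-fold in the first step and 3 did in the second, all higher. Medians were -0.27 for mitotic and -0.28 for replication genes in the first step, and 0.61 and 0.53 in the second. Replicate controls differed by up to 0.43 and 0.47 in the same medians, more than either value of the first step. The gene rnr-1, of ribonucleotide reductase, had 44.2, 44 and 94.8 TPM.

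Neuronal genes were, by list median, lower at each hour than at the one before, across transmitters and peptides. Of 33 genes of synaptic vesicle release, 16 were at least 2-fold lower in the first step and none higher, beside 7.05% of all genes lower. Of 30 genes of acetylcholine and GABA signalling, 13 were. Medians were -0.93 and -0.85 in the first step and -0.45 and -0.40 in the second. The synaptotagmin gene snt-1 (chromosome II, 6810963 to 6816443) had 53.2, 18.4 and 9.84 TPM, the calcium channel gene unc-2 had 31.4, 9.75 and 5.7 TPM, and cla-1, an active zone protein, had 20.8, 6.52 and 3.87 TPM. The acetylcholine transporter gene unc-17 had 19.1, 5.8 and 2.41 TPM, the GABA-making enzyme gene unc-25 had 81.2, 28.3 and 15.1 TPM, and unc-30, the factor that sets GABA fate in motor neurons, had 9.26, 1.82 and 1.24 TPM. The 2 most abundant genes of the list stayed within 2-fold, namely unc-116, a kinesin heavy chain, with 191, 159 and 156 TPM, and snb-1, the vesicle protein synaptobrevin, with 210.2, 170.5 and 161 TPM.

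Other transmitter systems were lower as well. Glutamate genes had 3 of 19 at least 2-fold lower in the first step, where 7.05% of all genes were. The vesicular glutamate transporter gene eat-4 had 14.2, 6.82 and 1.95 TPM. Monoamine genes had 8 of 21 lower. In that list ser-2, a tyramine receptor, had 4.42, 0.866 and 0.948 TPM, while the biosynthesis gene bas-1 had 17.7, 25.8 and 49.2 TPM. Cilia and sensory genes had 7 of 28 lower, with osm-9, a TRPV channel, at 10.3, 2.95 and 1.72 TPM. Of 38 genes with roles in learning and memory, which the study's question concerns, none was at least 2-fold higher in either step. In the second step 1 was lower, a smaller share than the 5.69% of all genes, and in the first 10 were lower. Among them the calsyntenin gene casy-1 had 116, 49.4 and 18.1 TPM, the kinase gene cmk-1 46.1, 16.6 and 10.1 TPM and the adenylyl cyclase gene acy-1 30.5, 11.5 and 8.66 TPM. The TGF-beta ligand gene daf-7 had 3.93, 0.828 and 0.2 TPM. The abundant G protein gene egl-30 had 308, 201 and 181 TPM and stayed within 2-fold.

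Neuropeptide genes continued downward in the second step. FMRFamide-like peptide genes had 4 of 29 at least 2-fold lower at 36 hr and 7 at 48 hr, beside 7.05% and 5.69% of all genes. Their medians were -0.79 and -0.74, and none was higher past 2-fold. The gene flp-16 had 183, 99.1 and 38.7 TPM, flp-4 had 88, 49.5 and 18.1 TPM, and flp-1 had 8.69, 2.69 and 0.614 TPM. The other neuropeptide-like genes, outside the epidermal cluster, had 13 of 48 lower in the first step and 16 in the second. Only 1 was higher in each step, where 3.30% and 10.8% of all genes were. The gene nlp-14 had 87.4, 38.4 and 9.6 TPM, while nlp-40, which is made in the intestine, had 348, 367 and 549.6 TPM. Of 18 genes that process and release peptides, 3 were lower in the first step; unc-31, the release factor CAPS, had 16.4, 4.54 and 2.93 TPM, and ida-1 had 264, 148 and 65.1 TPM. Between replicate controls the medians of the 2 peptide lists differed by at most 0.36 and 0.40. Of 8 measured insulin-like genes among 40, 2 were lower in the first step and 1 in each direction in the second; ins-18 had 48.2, 24.5 and 7.08 TPM.

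Ratios of the first step also moved with transcript length. Sorted into 6 equal bins by the longest annotated transcript, which was known for 13022 of the 13041 genes, medians at 36 hr over 24 hr were 0.03 in the shortest bin and -0.40 in the longest, and 6.54% and 8.29% of genes were at least 2-fold lower there. At 48 hr over 36 hr the same bins had medians of -0.03 and 0.11. The atp-2 RNAi libraries of 24 and 36 hr, from other worms, had medians of 0 and -0.37. In replicate controls the shortest and longest bins differed by at most 0.19. The median transcript of synaptic genes had 3170 bases, of acetylcholine and GABA genes 1944, of learning and memory genes 3090 and of FMRFamide-like genes 641.

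Taken against genes of like length, in 20 bins and chosen after the data were seen, list medians in the first step were -0.57 for synaptic release, -0.60 for acetylcholine and GABA, -0.79 for FMRFamide-like peptides and -0.73 for molting regulators. For learning and memory the median was -0.30, against -0.64 without that correction, and replicate controls differed by up to 0.27 in it. For glutamate genes it was -0.37, against -0.73. Germline stem cell, meiotic and germ granule lists had 1.03, 0.90 and 0.98. Mitotic genes had 0.01, against -0.27 without that correction. RNA quality is not given in the sources used here, and its part in the trend with length was not tested.

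**Figure D4:**
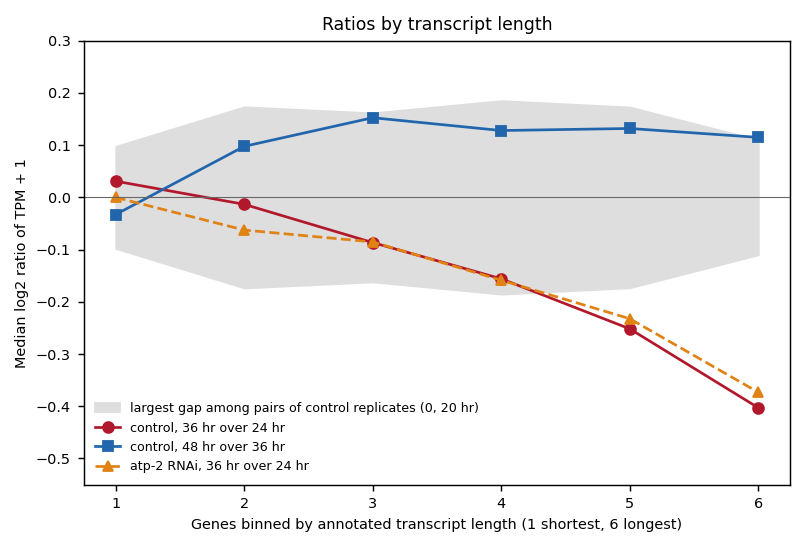
Median log2 ratio of TPM + 1 (vertical axis) in 6 bins of genes by annotated transcript length (horizontal axis) for control and atp-2 RNAi worms, 1 library per hour; the grey band spans the largest gap of the same median among 6 pairs of replicate controls at 0 or 20 hr. Both lines for 36 hr over 24 hr slope down, to -0.40 and -0.37 in the longest bin, and the line for 48 hr over 36 hr does not.

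Body wall muscle genes hardly moved, with a median of 0.03 and 0.04 over 34 genes, and the sign of the median turned under 1 of 4 other scalings in the first step and under all 4 in the second. Only egl-19, a voltage-gated calcium channel, passed 2-fold, with 25.3, 11.9 and 8.83 TPM. The troponin C gene pat-10 had 1335, 2198 and 2860 TPM, while the giant proteins ttn-1 and unc-22 had 14, 7.76 and 6.38 TPM and 49.6, 29.2 and 28.2 TPM. Pharyngeal muscle and gland genes had 3 of 12 at least 2-fold lower in the first step and none in the second, beside 7.05% and 5.69% of all genes. Intestinal genes had 3 of 27 at least 2-fold higher in the first step and 5 in the second, beside 3.30% and 10.8% of all genes. Their median was 0.47 in each step, and none was lower past 2-fold. The cathepsin B gene cpr-6 had 347, 657 and 2209 TPM, and asp-1, an aspartic protease, had 6620, 9241 and 10374 TPM.

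Lists of defence and detoxification had medians above 0 at 48 hr over 36 hr, between 0.38 and 0.80 beside 0.10 for all genes, with a minority of their members past 2-fold (10.8% of all genes were higher). Replicate controls differed by up to 0.56 in the median of glucuronosyltransferases (0.45 here) and 0.40 in that of glutathione S-transferases (0.38 here). For C-type lectins, lysozymes and cytochrome P450 genes they differed by at most 0.20, 0.17 and 0.13, less than the medians here. Of 77 measured C-type lectins among 240, 32 were at least 2-fold higher and 2 lower in the second step; clec-63 had 449, 1362 and 3510 TPM. Lysozymes and saposin-like genes had 7 of 25 higher and 1 lower, with lys-2 at 79.1, 193 and 479 TPM and spp-5 at 559.6, 996 and 1711 TPM. Cytochrome P450 genes had 15 of 49 higher and 3 lower, and cyp-35A2 had 7.44, 25.4 and 102 TPM. Glucuronosyltransferases had 10 of 52 higher and 4 lower, and ugt-13 was the exception by size, with 57.4, 76 and 5.34 TPM. Glutathione S-transferases had 6 of 37 higher and 1 lower. Antimicrobial peptides of the epidermis went the other way, with 6 of 18 lower and none higher; nlp-24 had 1205, 1097 and 291 TPM and cnc-8 had 59.7, 86.3 and 15.8 TPM.

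Fat desaturases were higher late. Of 20 genes of fatty acid synthesis, 4 were at least 2-fold higher in the second step and none lower, beside 10.8% and 5.69% of all genes. The stearoyl-CoA desaturase genes fat-5, fat-6 and fat-7 had 1.75, 1.49 and 23.5 TPM, 155, 193 and 496 TPM and 3.57, 19.8 and 79.6 TPM. The pud genes, named as proteins upregulated in mutants of the insulin receptor gene daf-2, were the list with the highest median of the first step (2.17), with all 6 at least 2-fold higher at 36 hr over 24 hr and within 2-fold afterwards. The duplicated pud-1.1 and pud-1.2 had 14.6, 95.6 and 54.2 TPM and 14.1, 92.5 and 52.4 TPM, and their reads cannot be separated with confidence. Replicate controls differed by up to 0.73 in that median.

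Chaperone genes had the lowest median of the first step (-1.09), with 10 of 20 at least 2-fold lower and none higher, beside 7.05% of all genes lower. The small heat shock gene hsp-16.2 had 14.4, 1.67 and 0.501 TPM, and the HSP70-type pair F44E5.4 and F44E5.5, near-identical in sequence, had 128, 19.5 and 6.44 TPM and 129, 19.7 and 6.53 TPM. The constitutive hsp-1 had 2249, 1778 and 1853 TPM. In replicate controls this median differed by up to 0.94, and hsp-16.2 by 2.35 on the log2 scale, nearly as much as its own -2.53 here. Differences in growth conditions between the hours are not given in the labels.

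The target of the study's RNAi, atp-2, was steady in these controls, with 2225, 2578 and 2607 TPM at 24, 36 and 48 hr. None of the 12 measured nuclear genes of the ATP synthase and its inhibitor proteins passed 2-fold in the first step, in which their median was 0.36. Only the inhibitor gene mai-1 did in the second, with 40, 54.1 and 17.8 TPM. Protein genes of the mitochondrial genome had a median of 0.70 in the second step over 9 genes, and only nduo-2 passed 2-fold, from a low level (2.09, 0.854 and 5.4 TPM). Among 79 cytosolic ribosomal protein genes only rpl-11.1 passed 2-fold, with 55.6, 264 and 401 TPM, and the list had medians of 0.11 and -0.27, of which the first turned sign under 1 of 4 other scalings. No proteasome gene of 33 passed 2-fold in either step.

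**Figure D5:**
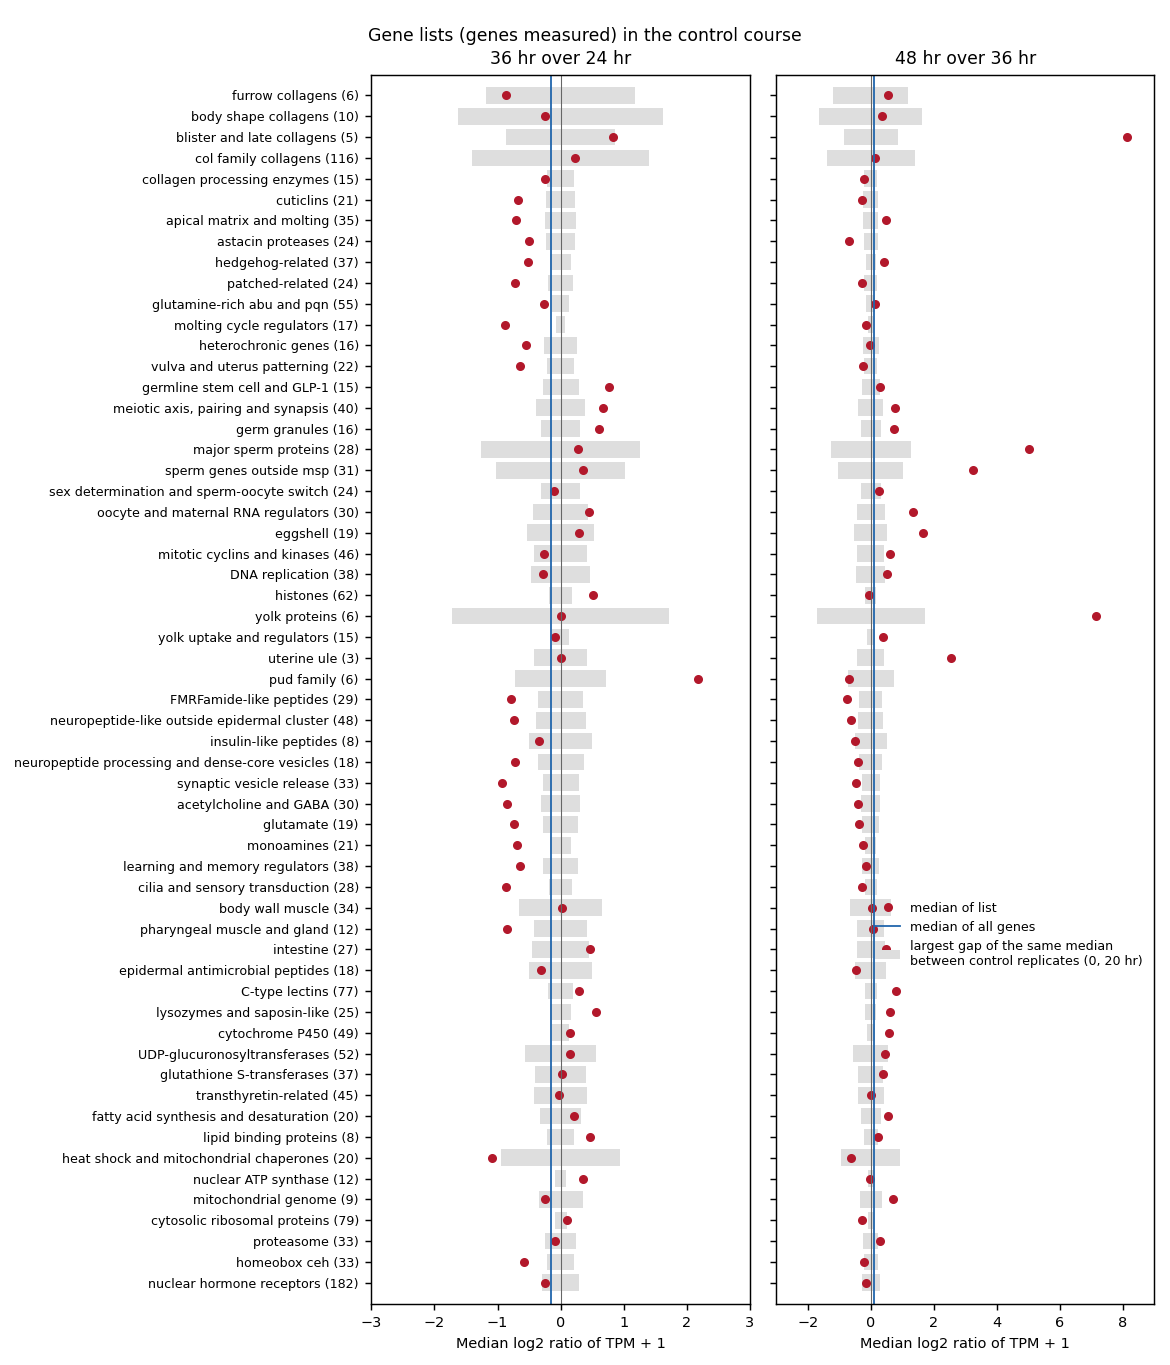
Red points give the median log2 ratio of TPM + 1 for each of 58 gene lists (number of genes measured in parentheses) at 36 hr over 24 hr and at 48 hr over 36 hr, on axes of different range; blue lines mark the median of all genes (-0.16 and 0.10) and grey bars the largest gap of the same list median between replicate controls at 0 or 20 hr. Late collagens, yolk, sperm, eggshell and oocyte lists lie far right of their bars in the second step, and most neuronal lists and the molting regulators lie left of theirs in the first.

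The largest single ratios of the first step had mixed backing. The highest belonged to F25H2.16, listed at 0 at 24 hr and at 34.8 and 27.1 TPM at 36 and 48 hr, but replicate controls differed by up to 5.52 on the log2 scale at this gene. The lowest belonged to T22E5.7, at 9.11 TPM at 24 hr and listed at 0 afterwards, where replicate controls differed by up to 0.95. After lin-41 came acdh-2, an acyl-CoA dehydrogenase gene of fatty acid breakdown, with 39.1, 4.03 and 0.244 TPM at 24, 36 and 48 hr and a largest replicate gap of 2.06. It was at least 2-fold lower in each step.

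Genes that were high at 36 hr alone numbered 43. By size these were led by short genes, such as the snoRNA gene D1007.20 with 0.0112, 13.1 and 0.481 TPM and mir-4938, listed at 0 at 24 and 48 hr and at 5.01 TPM at 36 hr. In atp-2 RNAi worms D1007.20 had 0.162 and 16.2 TPM at 24 and 36 hr. The highest levels at 36 hr among the 43 belonged to the collagens col-145, with 790.0, 2068 and 726 TPM, and col-156, with 175, 403 and 113 TPM. Among other protein-coding genes, chosen after their values were seen, acs-2, an acyl-CoA synthetase of fat breakdown, had 108, 231 and 31.5 TPM, and decr-1.1, a dienoyl-CoA reductase, had 2.38, 9.95 and 0.924 TPM. The amino acid oxidase gene daao-1 had 17.1, 59.6 and 29 TPM. Several of the 43 are neighbours: T20D4.3, T20D4.5 and T20D4.7 on chromosome V, known by sequence names, had 4.27, 15.4 and 2.63 TPM, 2.89, 12.1 and 1.73 TPM and 1.13, 8.62 and 0.613 TPM. F45D11.14, F45D11.15 and F45D11.16 on chromosome II had 11.3, 27.7 and 10.8 TPM, 13.9, 55.6 and 11.2 TPM and 7.46, 23.6 and 4.17 TPM. In atp-2 RNAi worms acs-2 had 207 and 440.3 TPM at 24 and 36 hr and decr-1.1 had 0.851 and 22.4 TPM, so both were also higher at 36 hr there. Of the 20 genes lowest at 36 hr, R17.3 had 28.8, 9.48 and 46.9 TPM and dyf-7, an extracellular matrix protein of sensory dendrites, had 2, 0.239 and 2.4 TPM.

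The same step in atp-2 RNAi worms, from separate libraries, gives a view of the first step from other worms, though under another treatment. Of the 431 genes at least 2-fold higher in controls at 36 hr, 299 (69.4%) were higher to any extent in atp-2 RNAi worms, where 35.3% of all genes were, and 129 (29.9%) past 2-fold, where 4.2% of all genes were. Of the 920 genes at least 2-fold lower, 820 (89.1%) were lower to any extent, where 62.7% of all genes were, and 205 (22.3%) past 2-fold, where 6.76% of all genes were. The large single changes of controls were partly shared. The neuronal transcription factor gene egl-46 had 15.8, 1.29 and 0.68 TPM in controls at 24, 36 and 48 hr and 15.2 and 1.9 TPM in atp-2 RNAi worms at 24 and 36 hr. The heat shock gene hsp-16.2 had 125 and 5.17 TPM in atp-2 RNAi worms at 24 and 36 hr, so both genes were lower at 36 hr there too. The gene lin-41 had 126 and 92.2 TPM in atp-2 RNAi worms at those hours and the germ granule gene glh-1 had 8.19 and 8.17 TPM, both within 2-fold. Whether the steps differ between treatments was not tested, with 1 library each.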

How the data were processed

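TPM were measured in whole worms. The submitters' processing notes name bcl2fastq 2.20, TopHat, Cufflinks and build WBcel235; per the labels' protocols, a strand-specific SureSelect kit was used. The deposited tables hold TPM for each library, per the file headers, with a fixed total, so depth is unknown and no counting interval or detection limit can be given. Genes without signal, listed as 0.0001, were set to 0, and 11 symbols turned into dates were restored by gene identifier. Ratios are differences of log2(TPM + 1) between libraries. Genes past 2-fold were counted among those with a mean of 1 TPM or more, and no test was made. Scripts ran in Python 3.11.15 with pandas 2.3.3, numpy 2.4.6 and matplotlib 3.10.9, and the counts were checked on simulated data. Coordinates are those of the deposited tables. Transcript lengths are from a WBcel235 annotation matched by gene identifier. Whether replicates were separate cultures is not labelled, so their spread may be technical.

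The members and the 58 gene lists were chosen with earlier results of these data known. The rule for named genes took the 10 largest ratios per step and direction, the 8 most extreme at 36 hr in each direction, members of lists of up to 15 genes, and from larger lists the 4 largest ratios and 2 highest levels. The genes acs-2, decr-1.1, daao-1, T20D4.3, T20D4.5, F45D11.14, F45D11.15, F45D11.16, col-81, col-122, col-139, col-178, col-145, col-156, act-1, act-3 and eef-1A.1, and those at the entry limit, were named after their values were seen. Values were recomputed with pseudocounts of 0.1 and 5, without the filter, with filters of a mean of 5 TPM or of 1 TPM in each library, after scaling to a common median or by quantile normalization, without the 100 most abundant genes and, added after seeing the data, corrected for transcript length.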

Additional observations from a re-analysis of the deposited data

Results flagged for a closer look

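At 36 hr over 24 hr, 2 named genes moved past 2-fold in opposite directions in control and atp-2 RNAi worms, with 1 library per hour and treatment, and the difference was not tested. The hedgehog-related gene grd-13 had a log2 ratio of -1.09 in control worms, where it had 447, 209.9 and 5.63 TPM at 24, 36 and 48 hr. In atp-2 RNAi worms it had 198 and 427 TPM at 24 and 36 hr, a ratio of 1.11. The prolyl 4-hydroxylase gene phy-2 had a ratio of 1.13 in control worms and 147 and 53.6 TPM at 24 and 36 hr in atp-2 RNAi worms, a ratio of -1.44. Among replicate controls the largest gap was 1.19 for grd-13 and 0.36 for phy-2.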

How the results depend on the processing

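Counts past 2-fold moved with the pseudocount and the filter. Listed as higher and lower at 36 hr, then higher and lower at 48 hr, the reported counts are 431, 920, 1406 and 742. A pseudocount of 0.1 gave 1020 genes higher at 36 hr and 1116 lower at 48 hr. A pseudocount of 5 gave 141, 274, 692 and 344. A mean of at least 5 TPM gave 280 higher and 517 lower at 36 hr and 648 higher at 48 hr, and at least 1 TPM in each library gave 563 higher at 48 hr, since genes absent earlier leave the count. A common median gave 750 higher and 390 lower at 36 hr. Quantile normalization gave 461 lower at 36 hr and 1221 lower at 48 hr, and the correction for length, added later, gave 599 lower at 36 hr. Counts not given here stayed within 1.5 times the reported ones. Of 7056 values of lists and named genes under these alternatives, 1497 moved by more than the spread between replicate controls. No value past 2-fold changed sign. No paired analysis was possible because each hour has 1 library. Depth is unknown. Levels near 0 rest on few reads, and near-identical genes share reads.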

Other observations

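Chromosomes differed in how many of their genes moved. On the X chromosome 23 of 1883 genes (1.22%) were at least 2-fold higher and 210 (11.2%) at least 2-fold lower at 36 hr over 24 hr, beside 3.30% and 7.05% of all genes, with a median of -0.29, or -0.11 against genes of like transcript length. At 48 hr over 36 hr the X chromosome had a median of -0.07, or -0.18 against genes of like length. Of its genes 7.06% were at least 2-fold higher there, beside 10.8% of all genes. Chromosome IV had the most genes at least 2-fold higher in the second step, 359 of 2213 (16.2%), and it held 89 (35.04%) of the 254 genes that were at least 8-fold higher there, beside 16.97% of all genes. Of those 254 genes 44 belong to the sperm lists, 35 to the cuticle collagens and 152 to no list. The 152 include msp-52, sss-2, nspd-5, nspd-6, nspd-7 and nspd-10, of the same families as the listed msp-51, sss-1 and nspd-1. So 44 is a minimum for the sperm genes, and the full number was not counted. Of 15 measured genes of the mitochondrial genome 6 were at least 2-fold higher in the second step, beside 10.8% of all genes. Of the 9 protein genes among them only nduo-2 was.

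Of 33 measured ceh homeobox genes 10 were at least 2-fold lower and 1 higher in the first step, beside 7.05% and 3.30% of all genes, where the higher one is ceh-60. Of 182 nuclear hormone receptors 19 were lower and none higher, with a median of -0.25 beside -0.16 for all genes, and in the second step 14 were lower and 8 higher; nhr-19 had 29.6, 6.22 and 10 TPM and nhr-235 had 19.1, 11.4 and 0.739 TPM. Histone genes had 6 of 62 higher in the first step and none lower, among them his-74 with 4.32, 20.5 and 28.5 TPM, and many histone genes are too alike to be told apart. Transthyretin-related genes had 8 of 45 lower and 3 higher in the second step, where ttr-14 was listed at 0 at both earlier hours and had 44.6 TPM at 48 hr. None of 8 measured lipid binding protein genes passed 2-fold. Families picked after their values were seen include mec, genes of touch neurons, with 10 of 16 at least 2-fold lower in the first step, and glb, the globins, with 18 of 30.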
